A study of Mus musculus with 2 samples.

Results

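Pericentral endothelial cells line the central veins of the liver and the sinusoids that open into them. They are a known source of Wnt ligands and of R-spondin 3, secreted signals that keep the hepatocytes around the central vein in their pericentral state. Wnt ligands act through Frizzled receptors and their LRP co-receptors, and R-spondins slow the removal of those receptors from the cell surface. Here the cells were taken as barcodes of a single-cell RNA sequencing data set that passed an endothelial gate and held at least 3 counts, summed, of Rspo3 (R-spondin 3), Wnt9b (a Wnt ligand of central vein endothelium) and Lhx6 (a LIM homeobox transcription factor). This gave 785 barcodes of 20000 in all, 314 from the library labelled knockout and 471 from the library labelled control.

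The study set livers without endothelial Ctgf beside livers with it after partial ligation of the inferior vena cava, which impedes outflow from the liver. Ctgf, now named Ccn2, encodes connective tissue growth factor, a secreted matrix-associated protein. The knockout genotype was Cdh5-CreERT2; Ctgffl/fl, in which a Cre recombinase that tamoxifen activates is driven by the endothelial Cdh5 promoter, and the control genotype was Ctgffl/fl, the floxed alleles without Cre. Both were male littermates of 1 batch, both had the ligation, and each gave 1 library of liver cells from which hepatocytes, erythrocytes and dead cells had been depleted. Ages and tamoxifen schedules were not given in the labels. The sample titles contradict the genotypes: the sample with the Cre genotype is titled as the control. Library names go with the genotypes, which are followed here, so the libraries are called knockout and control by genotype. As each label has 1 library, no difference between labels could be tested, and the genotype cannot be told apart from the animal or the library.

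The endothelial gate asked for at least 30 counts per 10000 of Ptprb, Kdr, Stab2 and Gpr182 together and under 15 of the Kupffer cell genes Clec4f, Vsig4, Cd5l and C6. It held 3842 of 8799 kept barcodes of the library labelled knockout and 2347 of 7917 of the library labelled control, and the endothelial barcodes below the threshold of 3 counts, 3528 and 1876, are called other endothelial. The 2 libraries shared 2 barcode numbers. Pericentral barcodes were deeper than the others, with medians of 11727 counts in the library labelled knockout and 12282 in the library labelled control, against 7201 and 6774 in other endothelial barcodes. A deeper barcode reaches 3 counts more easily. Levels are CPM, a gene's share of the summed counts of a set scaled to the usual fixed total, each difference is a log2 ratio of 2 such levels, and brackets hold 95% intervals, which cover counting error only.

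Stellate cell transcripts stood out before any comparison. Stellate cells are the vitamin A-storing mesenchymal cells that lie beneath the sinusoidal endothelium, and they too are known to express Rspo3. At least 5 counts per 10000 of Lrat, Reln, Dcn, Ecm1 and Colec11 together were found in 84 of 314 pericentral barcodes (26.8%) of the library labelled knockout and in 123 of 471 (26.1%) of the library labelled control. In other endothelial barcodes the shares were 6.97% and 12.9%. Pericentral barcodes with these transcripts had medians of 20352 and 20121 counts, and those without had 9936 and 10185. Rspo3 was the single rule gene detected in 60 of the 84 and 78 of the 123 barcodes with stellate transcripts, and in 74 of the 230 and 38 of the 348 without. The levels of Pecam1 and Cdh5, both junction genes of all endothelium, were 613 and 501 CPM in the knockout-labelled barcodes with stellate transcripts, against 1346 and 960 CPM in those without. Values without these barcodes, which rest on 230 and 348 barcodes, are given beside the results that lean on them most. The origin of the stellate transcripts was not tested.

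Selp and Fmo2, the markers that the rule did not use, stood higher in the selected barcodes of both libraries. Selp, which encodes the leukocyte-tethering receptor P-selectin, stood at 236 CPM in pericentral and 11.8 CPM in other endothelial barcodes of the library labelled knockout, and at 193 and 52.5 CPM in the library labelled control. Fmo2, a flavin-containing monooxygenase, stood at 160 CPM in pericentral and 8.41 CPM in other endothelial barcodes of the library labelled knockout, and at 642 and 84.2 CPM in the library labelled control. At least 1 Selp count was present in 165 of 314 and 329 of 471 pericentral barcodes, and in 4.48% and 21.2% of other endothelial barcodes. With every barcode thinned to 3000 counts, the shares were 35.7% and 42.7% of pericentral and 2.64% and 11.8% of other endothelial barcodes. Lymphocyte barcodes, which should lack Selp, had one in 1.03% and 0.815% of cases, at medians of 4779 and 5036 counts. Fmo2 was present in only 60 of 314 pericentral barcodes of the library labelled knockout and in 277 of 471 of the library labelled control, or 47 and 233 after thinning. The 10 pericentral barcodes with most Fmo2 held 54.4% and 14.5% of its counts. Barcodes that all met the same rule were thus unlike in this marker. The rule genes themselves, which chose the members and are given as a description, stood at 768 and 450 CPM for Rspo3, 112 and 171 CPM for Wnt9b and 88.6 and 176 CPM for Lhx6. Since Selp and Fmo2 come from the barcodes the rule selected, their excess is likewise a description.

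Pericentral barcodes made up 8.17% of endothelial barcodes (7.33 to 9.08) in the library labelled knockout and 20.1% (18.5 to 21.7) in the library labelled control, a log2 ratio of -1.30. Without barcodes that held stellate transcripts the shares were 6.55% and 17.6%. When every barcode was thinned to 3000 counts, they were 3.71% (3.14 to 4.36) and 8.15% (7.07 to 9.33). A rule of at least 2 counts of Wnt9b and Lhx6, leaving Rspo3 out, gave 4.27% and 15.4%. The share was lower in the library labelled knockout under each of these rules. The denominators differed too, with 3528 other endothelial barcodes in the library labelled knockout and 1876 in the library labelled control. Of all kept barcodes, 314 of 8799 and 471 of 7917 were pericentral. Fewer pericentral cells, more other endothelial barcodes and less RNA of the rule genes per cell cannot be told apart here. The shares describe a cell suspension and not the liver.

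**Figure D1:**
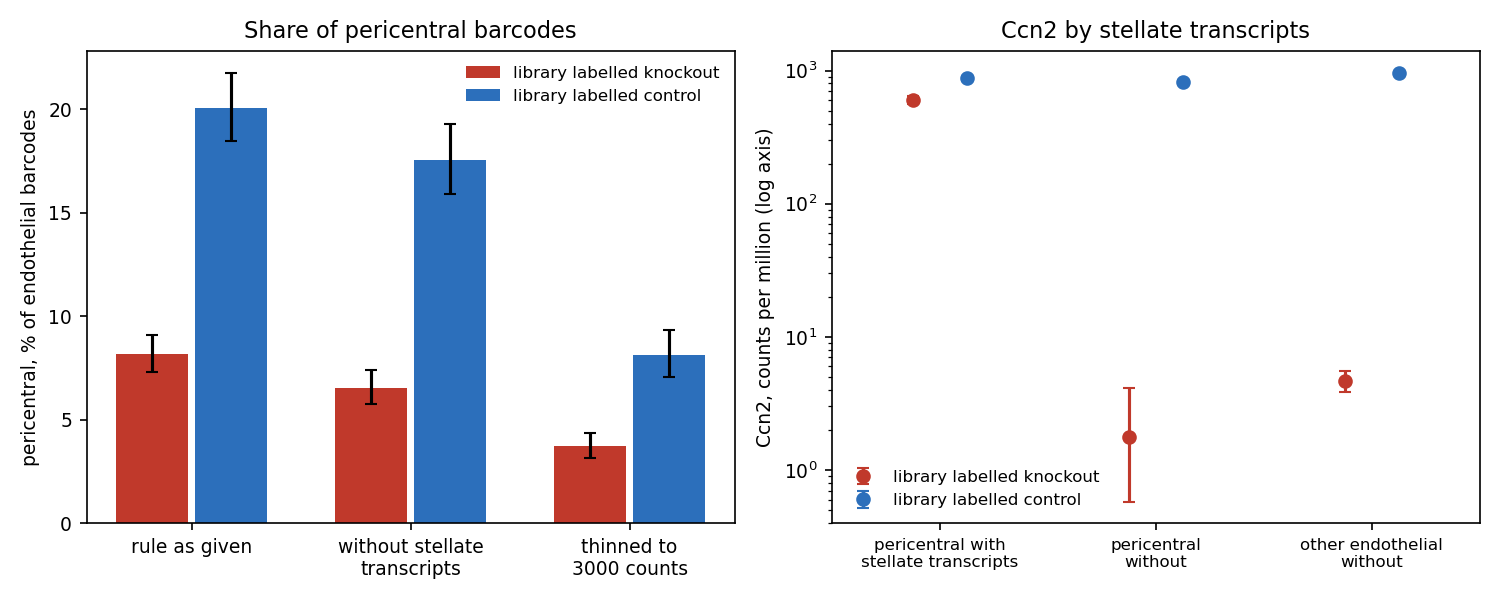
Left, pericentral barcodes as a percentage of endothelial barcodes with exact binomial intervals, under the rule, without stellate transcripts and after thinning; the library labelled knockout lies below the library labelled control each time (8.17% against 20.1% under the rule). Right, Ccn2 in CPM on a log axis with exact Poisson intervals; in the library labelled knockout it is 602 CPM in pericentral barcodes with stellate transcripts and 1.78 CPM in those without.

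Ccn2, the deleted gene, averaged 229 CPM over all pericentral barcodes of the library labelled knockout and 840 CPM over those of the library labelled control, a log2 ratio of -1.87 (-1.97 to -1.78). The first value came almost wholly from barcodes with stellate transcripts. In those it was 602 CPM (565 to 639) and 874 CPM (838 to 911), whereas in pericentral barcodes without them it was 1.78 CPM (0.578 to 4.15) and 820 CPM (793 to 847), a log2 ratio of -8.85. Only 5 of these 230 barcodes had a Ccn2 count in the library labelled knockout, against 279 of 348 in the library labelled control. Lymphocyte barcodes held a Ccn2 count in 2.26% and 9.78% of cases. Ccn2 in other endothelial barcodes was 11.6 and 943 CPM. The lower endothelial Ccn2 matched the genotypes, not the titles, and it extended to pericentral barcodes.

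Set against other endothelial barcodes of the same library, pericentral barcodes were higher in genes of veins and lower in genes of the portal and arterial side and of sinusoids. Of 6985 genes measured in both libraries (at least 30 counts and 20 CPM), 339 (4.85%) were at least 1.5-fold higher in both and 148 (2.12%) at least 1.5-fold lower in both. In the library labelled knockout alone the shares were 7.73% and 3.8%, and in the library labelled control 6.44% and 4.1%. Every gene of the selected barcodes is touched by the selection, so these counts describe the set and carry no test.

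Of 10 measured pericentral landmark genes, 8 were higher in the library labelled knockout and 6 of 9 in the library labelled control, and 0 were lower in either. The list medians were 1.25 and 1.41, against 0.02 over all measured genes in each library. Fbln2, which encodes the matrix protein fibulin 2, had log2 ratios of 3.62 and 2.63. Cdh13 (T-cadherin) had 1.97 and 1.42. Wnt2, a Wnt ligand, had 1.16 and 1.03, at levels of 221 CPM in pericentral and 98.7 CPM in other endothelial barcodes of the library labelled knockout and of 55.2 and 27.0 CPM in the library labelled control. Kit, a receptor tyrosine kinase, was higher in pericentral barcodes of the library labelled knockout, at 0.68, but had -0.32 in the library labelled control.

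Genes of large veins were higher in 8 of 13 measured cases in the library labelled knockout and in 6 of 13 in the library labelled control, with medians of 0.66 and 0.45, and 1 (Podxl) was lower in the library labelled control. Without stellate transcripts the counts of higher genes were 10 of 14 and 5 of 12. This list shares members with the pericentral landmarks, Selp and Fbln2 among them, so the 2 lists are not separate. Vwf (von Willebrand factor) stood at 104 CPM in pericentral and 10.3 CPM in other endothelial barcodes of the library labelled knockout, and at 126 and 21.9 CPM in the library labelled control. Plvap, which forms the diaphragms of fenestrae and caveolae, had log2 ratios of 2.42 and 0.82, and the second was 0.50 without stellate transcripts.

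On the opposite side, 7 of 9 measured periportal and arterial genes in the library labelled knockout and 8 of 10 in the library labelled control were lower in pericentral barcodes, with medians of -1.15 and -0.96, and 1 was higher in the library labelled knockout. Efnb2, the arterial ligand ephrin B2, was at 31.1 CPM in pericentral and 152 CPM in other endothelial barcodes of the library labelled knockout, and at 13.6 and 77.6 CPM in the library labelled control. Dll4, a Notch ligand, had log2 ratios of -1.57 and -1.62. Adam23 had -2.02 and -2.92. Sinusoidal identity genes were lower in 8 of 15 and 9 of 14 cases, with medians of -0.61 and -0.83, and 0 were higher. Without stellate transcripts 5 of 15 and 9 of 14 were lower. Clec4g, a lectin of sinusoidal endothelium, stood at 1686 CPM in pericentral and 3113 CPM in other endothelial barcodes of the library labelled knockout, and at 494 and 1327 CPM in the library labelled control. Without stellate transcripts the ratios in the library labelled control were -4.49 for Adam23, -3.17 for Efnb2 and -2.13 for Clec4g. These list medians had the same sign in both libraries.

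The 12 genes with the highest ratio in both libraries were Samd5, Bmp4, Hhip, Ms4a4d, Lhx2, Angptl6, Fmo2, Ntn1, Olfml3, Gdf2, Dcn and Col14a1. Several are known stellate cell genes, and all 12 stellate markers measured were higher in pericentral barcodes of both libraries, at medians of 4.14 and 2.51. Only 5 of the 12 leading genes, Samd5, Bmp4, Fmo2, Ntn1 and Col14a1, remained at least 1.5-fold higher in both libraries without stellate transcripts. With members chosen by Wnt9b and Lhx6 alone, Ntn1 and Col14a1 had log2 ratios of -0.57 and -0.34 in the library labelled control. Bmp4, a bone morphogenetic protein, had 180 CPM in pericentral and 5.32 CPM in other endothelial barcodes of the library labelled knockout, and 170 and 19.8 CPM in the library labelled control. Samd5 had log2 ratios of 5.09 and 3.50. Dcn (decorin), by contrast, had 4.28 and 2.84 with all barcodes and -0.0021 and -0.43 without those that held stellate transcripts. Gdf2, which encodes the ligand BMP9, had 4.54 and 2.86 with all and -1.09 and -1.07 without. Cxcl12 had 4.51 and 2.78 with all and -0.78 and -0.54 without. In barcodes without stellate transcripts, 175 of 6842 measured genes (2.56%) were higher in both libraries and 132 (1.93%) lower. The shares were 5.84% higher and 3.63% lower in the library labelled knockout alone, and 6.64% and 4.93% in the library labelled control. The leading 12 there were Samd5, Bmp4, Prss23, Fmo2, Fbln2, Fbln5, Vwf, Entpd1, Rbms3, Bcam, Chn2 and Selp. Entpd1, the ectonucleotidase CD39, had 191 CPM in pericentral and 16.2 CPM in other endothelial barcodes of the library labelled knockout, and 308 and 50.4 CPM in the library labelled control. Outside the endothelial gate Entpd1 stood at 198 and 168 CPM.

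The 8 genes lowest in pericentral barcodes were Efnb2, Esm1, Adam23, Dll4, Angpt2, Galnt15, Cxcl9 and Tnik. Esm1 and Angpt2 are genes of sprouting endothelium. Esm1 stood at 43.5 CPM in pericentral and 194 CPM in other endothelial barcodes of the library labelled knockout, and at 84.1 and 405 CPM in the library labelled control. Angpt2 had log2 ratios of -1.68 and -1.42. The chemokine gene Cxcl9 had -1.20 and -1.20.

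**Figure D2:**
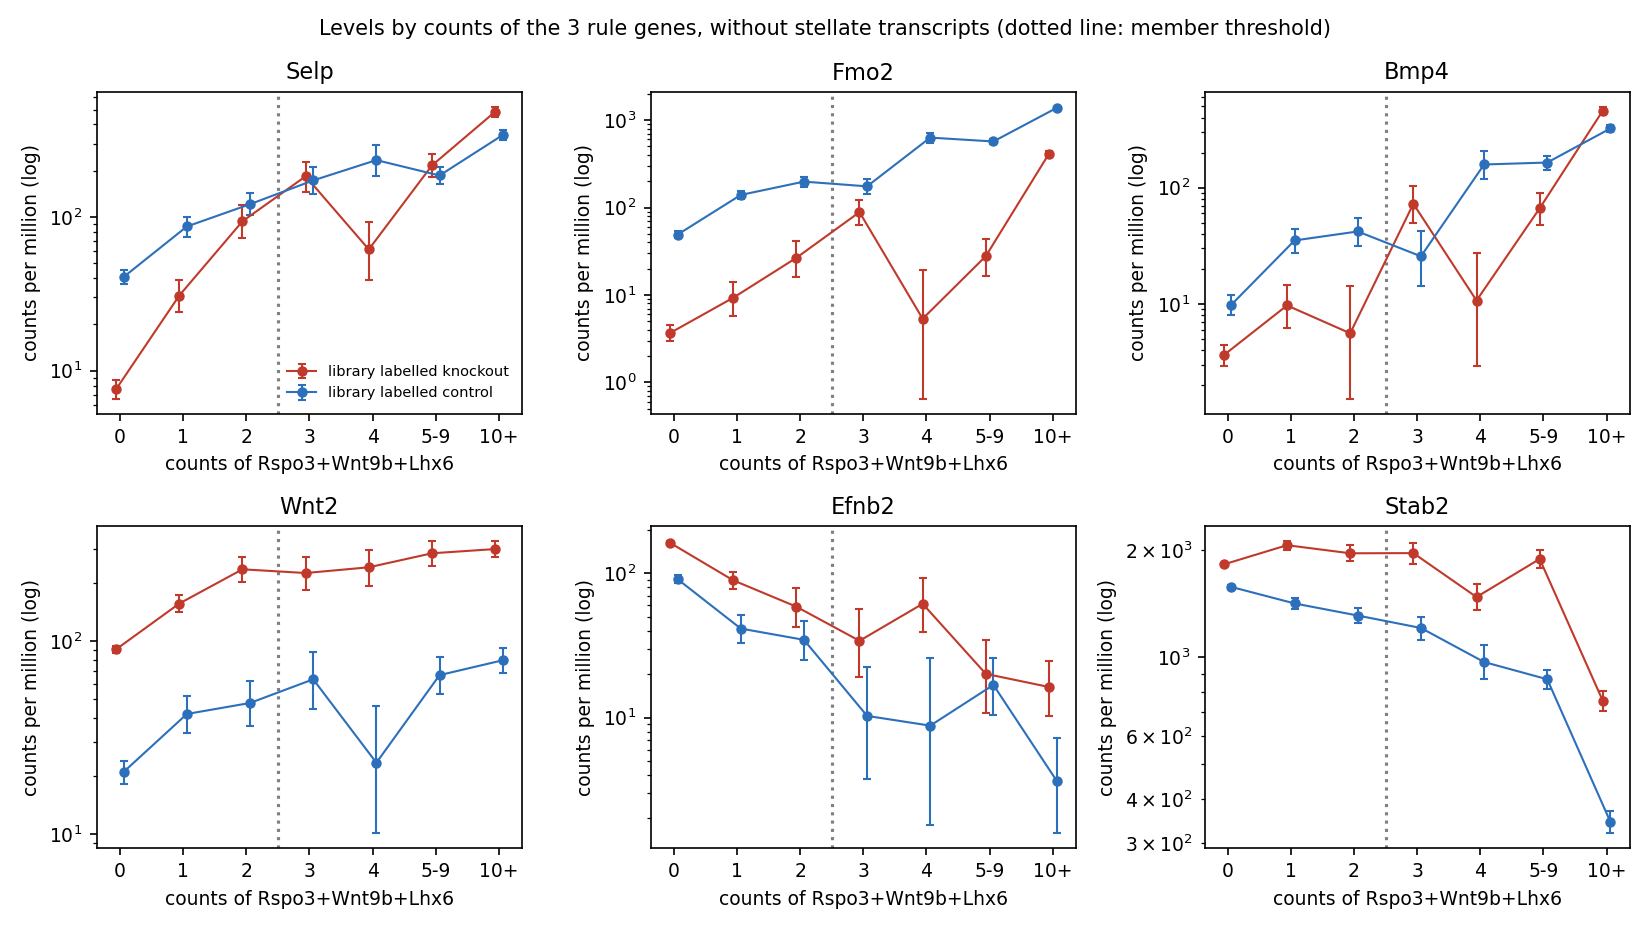
Level in CPM (log axes, exact Poisson intervals) of 6 genes by the number of Rspo3, Wnt9b and Lhx6 counts in the barcode, for endothelial barcodes without stellate transcripts; the dotted line marks the threshold of 3 counts. Selp, Fmo2, Bmp4 and Wnt2 are higher, and Efnb2 and Stab2 lower, at 10 or more counts than at 0 in both libraries, and no step separates 2 counts from 3 for Wnt2.

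The threshold cut through a graded series, given here without stellate transcripts. Just outside it, at 2 counts, 64 barcodes of the library labelled knockout and 105 of the library labelled control had Selp levels of 93.8 CPM (72.7 to 119) and 121 CPM (102 to 142). Just inside, at 3 counts, 39 and 56 barcodes had 184 CPM (146 to 229) and 173 CPM (141 to 210). Wnt2 stood at 235 and 47.8 CPM at 2 counts and at 225 and 63.4 CPM at 3 counts. With 10 or more counts, 98 and 158 barcodes had Selp levels of 484 and 341 CPM. Fmo2 was at 413 and 1374 CPM there, and at 88.6 and 175 CPM at 3 counts. The sinusoidal scavenger receptor gene Stab2, a gate gene, stood at 754 and 345 CPM with 10 or more counts, against 1963 and 1209 CPM at 3 counts. The barcodes with most counts of the rule genes thus had the most Selp and Fmo2 and the least Stab2 in both libraries. In the library labelled knockout the course was uneven: at 4 counts, on 31 barcodes, Selp was 61.5 CPM and Fmo2 5.35 CPM.

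Members fell along a range by 3 vein genes. Fmo2, Fbln2 and Vwf together reached 3 counts in 72 of 230 pericentral barcodes without stellate transcripts (31.3%) of the library labelled knockout and in 277 of 348 (79.6%) of the library labelled control. After thinning to 3000 counts, the shares with any such count were 34.3% and 80.7%. Of the barcodes without stellate transcripts, 30 and 30 held 2 to 4 of these counts and lay near the dividing value. The 3 genes and the value were picked after the levels had been seen, so the split describes a range and defines no cell type.

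The vein-rich barcodes of the 2 libraries were alike in some genes and apart in others. Fmo2 and Fbln2, which made the split, themselves had log2 ratios of -2.08 and -2.03, knockout over control, without stellate transcripts. The same value took unlike shares of members in the 2 libraries, so the vein-rich sets are not matched. Stab2 stood at 454 CPM (vein-rich) in the library labelled knockout and 512 CPM in the library labelled control, and at 1752 and 1372 CPM in the vein-poor barcodes. Selp in vein-rich barcodes was 635 and 298 CPM, beside 319 and 266 CPM over all pericentral barcodes without stellate transcripts. Bmp4 was 664 and 267 CPM in vein-rich barcodes and 27.8 and 22.8 CPM in vein-poor ones. Rspo3, a rule gene, was 1584 and 584 CPM in vein-rich barcodes. Levels of Bmp4 and Selp were thus higher in the vein-rich barcodes of both libraries. For Bmp4, the 10 pericentral barcodes with most of it held 47.3% and 24.1% of its counts without stellate transcripts. Kit ran the other way: it was 232 and 86.9 CPM in vein-rich and 432 and 132 CPM in vein-poor barcodes. Clec4g was higher in the library labelled knockout on both sides of the split, at 910 and 227 CPM in vein-rich and 2084 and 685 CPM in vein-poor barcodes, and so was Wnt2, at 242 and 63.9 CPM and at 295 and 95.3 CPM.

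**Figure D3:**
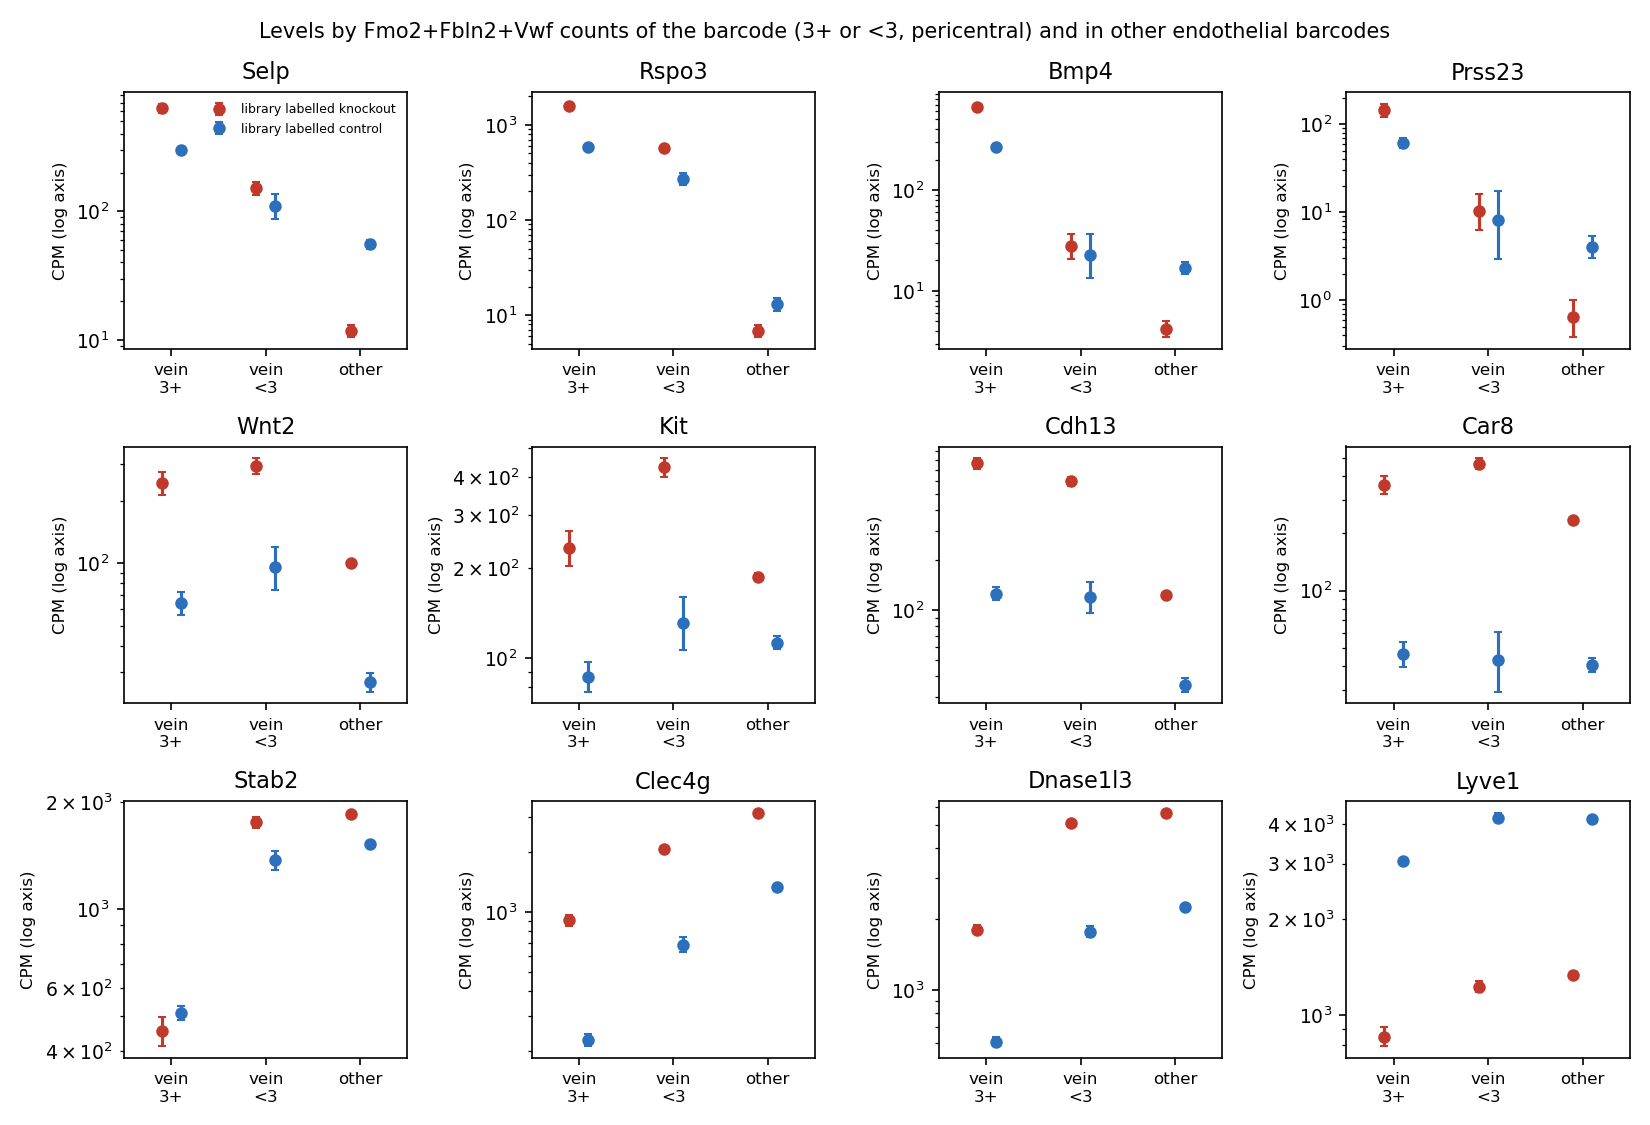
Level in CPM (log axes, exact Poisson intervals) of 12 genes in pericentral barcodes with 3 or more counts of Fmo2, Fbln2 and Vwf, in those with fewer, and in other endothelial barcodes, all without stellate transcripts. Wnt2, Cdh13, Car8, Clec4g and Dnase1l3 are higher, and Lyve1 lower, in the library labelled knockout in all 3 sets.

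Between the libraries, pericentral barcodes of the library labelled knockout had more transcript of Wnt2, Kit, Cdh13 and several sinusoidal genes, and less of cell-cycle genes, Fmo2, Fbln2 and Lyve1. Of 7629 measured genes, 561 (7.35%) were at least 1.5-fold higher and 826 (10.8%) at least 1.5-fold lower in the library labelled knockout. In other endothelial barcodes the shares of 7339 genes were 5.15% and 10.8%. Without stellate transcripts they were 8.77% and 13.3% in pericentral barcodes and 5.26% and 10.6% in other endothelial barcodes. The 2 comparisons use the same 2 libraries, so their values are set side by side and their difference was not tested. The pericentral sets also differed in make-up. Rspo3 was the single rule gene detected in 42.7% of members of the library labelled knockout and 24.6% of the library labelled control. A smaller share of members of the library labelled knockout was vein-rich. Ratios over pooled members mix make-up with level per cell, and the parts were not tested.

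Among 9 measured pericentral landmarks, 4 were higher and 2 lower in the library labelled knockout, with a list median of 0.29 against -0.03 over all measured genes. Without stellate transcripts 5 of 10 were higher and 2 lower, at a median of 1.10. Wnt2 stood at 221 CPM in the library labelled knockout and 55.2 CPM in the library labelled control, a log2 ratio of 2.00 (1.83 to 2.17), and it had 1.87 in other endothelial barcodes. Cdh13 had 482 and 96.6 CPM, or 2.32 (2.19 to 2.45) as a log2 ratio, beside 1.77 in other endothelial barcodes. Kit stood at 296 and 85.1 CPM, a ratio of 1.80, beside 0.80. Dkk3, a member of the Dickkopf family of secreted proteins, stood at 94.8 and 26.7 CPM, and its ratio of 1.83 was 3.56 without stellate transcripts. Fmo2 stood at 160 and 642 CPM, a ratio of -2.01, beside -3.32. Fbln2 stood at 138 and 569 CPM, a ratio of -2.04, beside -3.03. Selp and the fatty acid-binding protein gene Fabp4 were within 1.5-fold in pericentral barcodes, at 0.29 and -0.09, and at -2.15 and -1.22 in other endothelial barcodes. The other endothelial set includes barcodes just below the threshold, which also held Selp, and in a larger share in the library labelled control. The part of these barcodes in the landmark ratios of that set was not tested. The landmarks did not move as 1 group.

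For the wider Wnt pathway 10 of 27 genes were measured, of which 4 were higher and 0 lower in the library labelled knockout, at a median of 0.44. These were Wnt2, Dkk3, Nkd1 and Lrp6. Nkd1, a feedback inhibitor that Wnt signalling is known to induce, stood at 109 CPM in the library labelled knockout and 49.6 CPM in the library labelled control, and at 71.9 and 19.0 CPM without stellate transcripts. Lrp6, a Wnt co-receptor, stood at 192 and 118 CPM. The same 4 genes were higher in other endothelial barcodes, with a list median of 0.28.

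Wnt2 and Wnt9b are both secreted Wnt ligands of this zone. Wnt9b is a rule gene, so its levels in both endothelial sets were shaped by the selection. In other endothelial barcodes, which by definition fell below the count threshold, it stood at 2.06 and 1.78 CPM. The rule keeps these values low, so they cannot show whether Wnt9b differed between the libraries. The sequences before the transcription starts of Wnt2 and Wnt9b are from RefSeq on GRCm38.p6. They are shown to set Wnt2, which differed between the libraries, beside Wnt9b, which helped to choose the members. Capitals mark TTATC, the reverse complement of the GATA factor core GATAA. Wnt2 lies on the minus strand at chr6:18030446-18030695 and Wnt9b on the minus strand at chr11:103749822-103750071.
Wnt2: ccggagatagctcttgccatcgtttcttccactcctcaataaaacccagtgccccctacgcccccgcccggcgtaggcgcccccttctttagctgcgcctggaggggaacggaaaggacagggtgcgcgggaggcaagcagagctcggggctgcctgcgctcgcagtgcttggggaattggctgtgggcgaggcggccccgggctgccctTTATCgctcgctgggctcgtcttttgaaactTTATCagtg
Wnt9b: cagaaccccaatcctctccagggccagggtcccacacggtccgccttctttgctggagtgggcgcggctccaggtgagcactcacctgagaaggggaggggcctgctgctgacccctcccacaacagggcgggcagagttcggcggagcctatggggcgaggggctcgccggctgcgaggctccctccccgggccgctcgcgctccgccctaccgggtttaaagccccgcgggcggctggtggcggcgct
On both strands, 2 matches were found for Wnt2, 40 and 9 bases before the start, and 0 for Wnt9b. Of 32851 promoters of this length, 22.6% held GATAA or its reverse complement, which was searched for after the longer AGATAA (9.99% of promoters) had given 0 matches in both. GGAATG, the TEAD factor motif, occurs in 12.6% of promoters and CCGGAA, an ETS factor motif, in 12%, and neither was found in these windows when they were searched first. A match describes the letters only.

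Sinusoidal identity genes were higher in the library labelled knockout in 8 of 14 measured cases and lower in 1, with a median of 0.96. Dnase1l3, an endonuclease secreted by sinusoidal endothelium, stood at 3640 CPM in the library labelled knockout and 971 CPM in the library labelled control. Clec4g stood at 1686 and 494 CPM, and at 1675 and 305 CPM without stellate transcripts. Bmp2, a ligand through which the endothelium is known to control hepatocyte hepcidin, stood at 1160 and 343 CPM. Aass had a log2 ratio of 1.96. The single lower member was Lyve1, a hyaluronan receptor, at 938 and 2958 CPM, a ratio of -1.66 (-1.70 to -1.61). Other endothelial barcodes showed 9 of 15 higher and Lyve1 lower, at a median of 0.77. Dnase1l3 there had 1.32 and Lyve1 -1.59. The list therefore differed between the libraries in both endothelial sets.

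**Figure D4:**
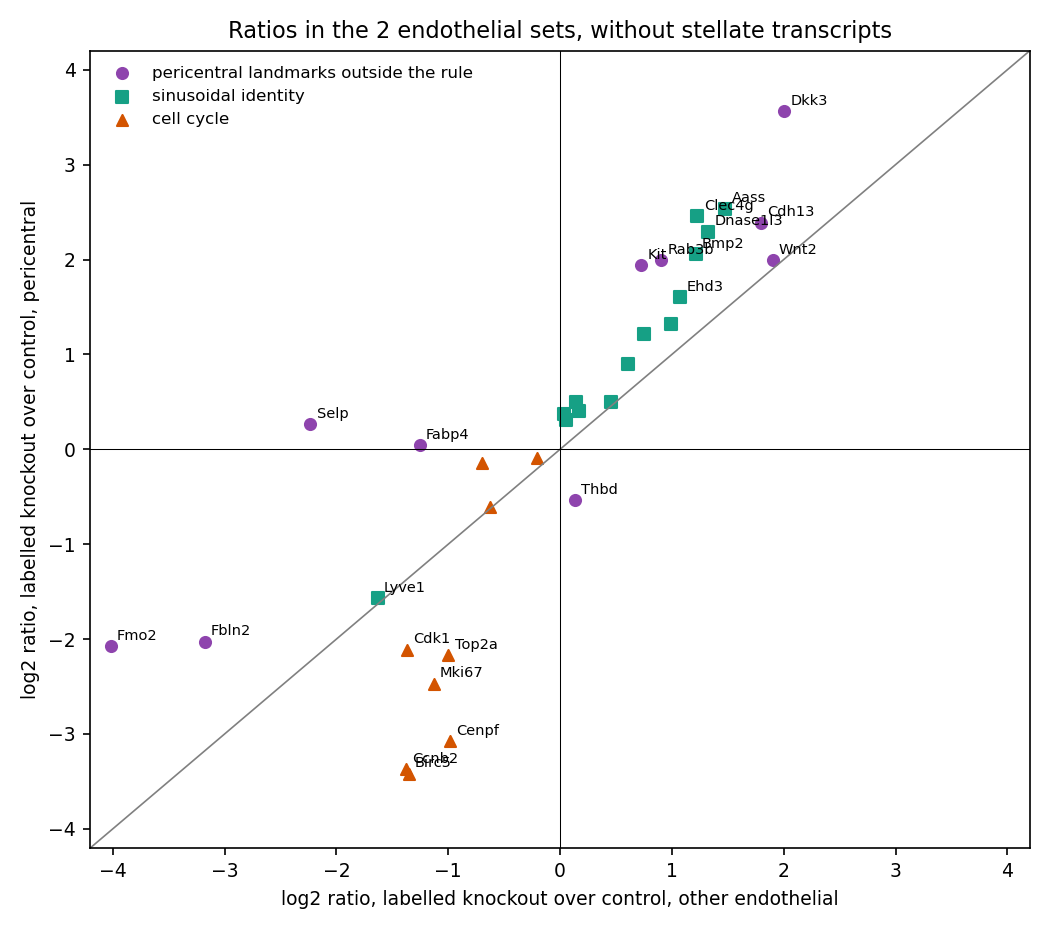
Log2 ratio of the library labelled knockout over the library labelled control in pericentral barcodes (vertical axis) against the same in other endothelial barcodes (horizontal axis), without stellate transcripts, for measured genes of 3 lists; the diagonal marks equal ratios. The cell-cycle gene Mki67 lies below the diagonal at -2.47 in pericentral and -1.13 in other endothelial barcodes, and Selp lies above it at 0.26 and -2.23. The 10 of these pericentral barcodes with most Mki67 held 87.7% of its counts in the library labelled knockout and 44.1% in the library labelled control.

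Cell-cycle genes were lower in 8 of 10 measured cases and higher in 0, at a median of -2.42. Other endothelial barcodes had 7 of 9 lower, at a median of -0.86. Mki67, a proliferation antigen, stood at 27.8 CPM in pericentral barcodes of the library labelled knockout and 156 CPM in those of the library labelled control, a log2 ratio of -2.49 (-2.77 to -2.22). The 10 pericentral barcodes with most Mki67 held 81.7% and 40.9% of its counts, a spread that the interval does not cover. Cdc20 had -3.63, Birc5 -3.42, Ccnb2 -3.25 and Cenpf -3.15. Per barcode, at least 3 counts of Mki67 and Top2a, a value picked after the levels had been seen, were present in 16 of 314 pericentral barcodes (5.10%, 2.94 to 8.14) of the library labelled knockout and in 69 of 471 (14.6%, 11.6 to 18.2) of the library labelled control. In other endothelial barcodes the shares were 2.04% and 5.65%. The barcodes with these counts were deep, at medians of 22589 and 19207 counts in pericentral barcodes. Without barcodes that held transcripts of stellate, Kupffer, neutrophil, lymphoid, hepatocyte or smooth muscle cells, the shares were 5.47% of 201 and 12.4% of 225. Against other endothelial barcodes, Mki67 in the library labelled control was higher in pericentral barcodes, at 0.65. In the library labelled knockout it was lower, at -0.86, and this direction was not stable, with 0.17 once barcodes with transcripts of other cell types were left out.

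The 10 genes highest in pericentral barcodes of the library labelled knockout were Ackr4, Col13a1, Car8, Cyp26b1, Adam23, Hlf, Tpbgl, Plppr5, Enpep and Cntfr. Car8, a carbonic anhydrase-related protein gene, stood at 345 CPM in the library labelled knockout and 39.2 CPM in the library labelled control. Cyp26b1, which breaks down retinoic acid, stood at 364 and 51.3 CPM, a log2 ratio of 2.82 beside 3.49 in other endothelial barcodes. Ackr4, an atypical chemokine receptor, stood at 51.2 and 5.63 CPM. Hlf, a transcription factor under circadian control, stood at 182 and 31.6 CPM. Each of the 10 was also at least 1.5-fold higher in other endothelial barcodes, with ratios of 1.45 to 3.49. Without stellate transcripts 7 of the 10 were among the 10 highest, and the ratios of Adam23 and Enpep were 3.85 and 3.66.

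The 10 lowest were Cenpe, Ube2c, Emp1, Prc1, Cenpf, Ccna2, Tpx2, Mki67, Top2a and Cdk1, all cell-cycle genes but Emp1. Emp1, an epithelial membrane protein, stood at 5.74 CPM in the library labelled knockout and 66.6 CPM in the library labelled control, a log2 ratio of -3.54 (-4.17 to -2.97), and it had -4.06 in other endothelial barcodes. Without stellate transcripts 5 of the 10 were among the 10 lowest, and Ccn2 came first.

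Of 19 measured angiocrine factors, secreted endothelial signals to neighbouring cells, 5 were higher and 9 lower in the library labelled knockout, at a median of -0.46. Without stellate transcripts 6 of 16 were higher and 6 lower, at a median of -0.10. Igf1 stood at 11.7 CPM in the library labelled knockout and 96.2 CPM in the library labelled control, but macrophages also make it. The Kupffer marker list stood at 844 and 2467 CPM in the same barcodes, and its part in the Igf1 ratio was not tested. Apln, the peptide apelin, stood at 40.2 and 147 CPM, a ratio of -1.87 beside -2.88 in other endothelial barcodes. Tgfb3 had -2.26 and was too low to be measured without stellate transcripts. Hgf, the hepatocyte growth factor gene, was among the 5 higher at 280 and 130 CPM, but at 26.7 and 16.7 CPM without stellate transcripts. Tgfb2 had -0.86 with all barcodes and 1.03 without those with stellate transcripts, so its direction depended on them.

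Tip-cell and angiogenic genes were higher in 3 and lower in 8 of 14 measured cases, at a median of -0.69, and lower in 5 of 11 without stellate transcripts. Aplnr, the apelin receptor, stood at 3.98 CPM in the library labelled knockout and 34.0 CPM in the library labelled control. Angpt2 had -1.08 and Esm1 -0.95, and Esm1 had -0.35 without stellate transcripts. Nrp1, a VEGF and semaphorin co-receptor, was among the 3 higher, at 922 and 505 CPM.

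Matrix genes were higher in 2 and lower in 10 of 21 measured cases, at a median of -0.46, and at -0.20 with 6 of 17 lower without stellate transcripts. Xylt1, which starts glycosaminoglycan chains, stood at 5.74 CPM in the library labelled knockout and 44.7 CPM in the library labelled control. Fbln5 (fibulin 5) stood at 102 and 323 CPM and Eln (elastin) at 13.9 and 51.2 CPM. Col13a1, a membrane collagen, was higher, at 59.0 and 6.49 CPM.

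YAP and TEAD target genes, read here because Ccn2 is a textbook member of them, were higher in 3 and lower in 6 of 19 measured cases, at a median of -0.08, and 5 and 5 of 16 without stellate transcripts. Both counts of lower genes include Ccn2, which the genotype deletes. Myof had -1.43 and Axl, a receptor tyrosine kinase, -1.07, or -1.82 without stellate transcripts. In pericentral barcodes without stellate transcripts the Kupffer marker list stood at 698 and 2818 CPM, and its part in these ratios was not tested. Ccn1, the closest studied relative of Ccn2, stood at 410 CPM in the library labelled knockout and 139 CPM in the library labelled control, a ratio of 1.56. Without stellate transcripts it stood at 168 and 146 CPM, a ratio of 0.20, and with transcripts of all the other cell types left out at -0.51. Its excess in the library labelled knockout was therefore found only with those barcodes in the sum. Among caveolar genes, Cav1 stood at 48.4 and 9.09 CPM and Cav2 at 120 and 28.9 CPM, both higher in the library labelled knockout, and 2 of 10 were lower, against 0 of 8 without stellate transcripts.

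Over all pericentral barcodes, MHC class II genes were lower in the library labelled knockout, in 4 of 10 measured antigen presentation genes with 0 higher. H2-Aa stood at 439 CPM in the library labelled knockout and 1013 CPM in the library labelled control, a log2 ratio of -1.21, and its ratio was -1.79 without stellate transcripts. The Kupffer marker list, again 844 and 2467 CPM, moved with it, and stood at 698 and 2818 CPM without stellate transcripts. Once barcodes with transcripts of other cell types were left out, that list stood at 440 and 532 CPM and the H2-Aa ratio was -0.63. Cd74 was then at -0.36 and H2-Ab1 at -0.47, both within 1.5-fold. Other marker lists also differed over all pericentral barcodes: neutrophil genes stood at 488 and 98.1 CPM and hepatocyte genes at 157 and 434 CPM. The parts of these in the other ratios were not tested.

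Genes that respond to tissue dissociation, such as immediate early genes, were higher in the library labelled knockout in 7 of 11 measured cases and lower in 0, at a median of 0.73, and in 4 of 9 without stellate transcripts, at 0.58. Egr1 stood at 524 CPM in the library labelled knockout and 170 CPM in the library labelled control, and Fos at 1492 and 686 CPM. Other endothelial barcodes had 7 of 9 higher, at a median of 0.82. This applies to every ratio between the libraries above, and its part in them was not tested.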

How the data were processed

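Raw whole-number counts for each gene in each barcode were deposited for 10000 barcodes per library, with totals of 129802501 counts in the library labelled knockout and 106208933 in the library labelled control. Libraries were made with BD Rhapsody whole transcriptome reagents, per the labels' protocols, and GRCm39 is the build named by the submitters' processing notes. For the aligner, counter, molecular identifiers and cell calling, the method is not given in the sources used, so intervals may be too narrow even for counting error. If reads were not collapsed, counts are not independent molecules.

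Barcodes with at least 300 genes and at most 25% mitochondrial counts were kept. Counts were summed per set and library. Levels have exact Poisson, shares exact Clopper-Pearson and ratios exact conditional 95% intervals. A gene was measured with at least 30 counts over both sums and 20 CPM in 1, and "higher" or "lower" means at least 1.5-fold. Doublets were left in: the automatic Scrublet threshold (Scanpy 1.11.5) marked only 0.0114% and 0.0126% of barcodes and had not worked, so leaving out the top 5% of scores was an alternative. That group held 11.1% and 7.43% of pericentral barcodes, against 2.35% and 4.96% of other endothelial barcodes.

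The members, marker genes and gene lists were chosen with earlier results of these data known. Genes named were Ccn2, the 5 markers, up to 4 of each list with the largest ratio, and the 12, 8 and 10 leading genes by size with at least 50 CPM in 1 sum and 100 counts in all. Excluded from these leading genes were rule genes, the endothelial and Kupffer cell genes of the gate, hepatocyte markers, and immunoglobulin, haemoglobin, ribosomal and mitochondrial genes. Rik and Gm models were excluded too. So were genes whose CPM outside the endothelial gate exceeded that in pericentral barcodes, taken in the library with the higher pericentral value. Further genes, among them those of the vein split, Ccn1, Lyve1, Kit, Hgf, Tgfb2 and Fbln5, were named after their values were seen. Some single-gene results are not reported here. The ratio code was tested on simulated counts. Alternatives were other member thresholds, thinning to 3000 counts, stricter barcode and gene filters, TMM (edgeR 4.0.16) and median-of-ratios scaling, and means over barcodes. Leaving out barcodes with transcripts of other cell types was added after seeing the data.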

Additional observations from a re-analysis of the deposited data

Results flagged for a closer look

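Igkc, an immunoglobulin light chain gene, had opposite directions in the 2 endothelial sets. Its log2 ratio of the library labelled knockout over the library labelled control was 1.02 in pericentral barcodes, at 1063 and 522 CPM, and -1.41 in other endothelial barcodes, at 203 and 537 CPM. The difference between the sets and the spread of Igkc counts over barcodes were not tested. Jchain, a joining chain gene of plasma cells, ran the same way, at 1.75 and -0.96. The summed list of B and plasma cell genes, which holds 6 genes, was 135 and 71.3 CPM in pericentral barcodes and 41.1 and 118 CPM in other endothelial barcodes, and Mzb1 was at 0 in pericentral barcodes of both libraries. In pericentral barcodes without transcripts of other cell types that list was 4.25 and 11.3 CPM.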

How the results depend on the processing

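No paired analysis was possible because each label had 1 library and no result came from a test. No replicate could be left out. Of the shares and counts of genes under the alternatives, 73 values stayed within their interval or within 1.5 times and 29 moved. The pericentral share was 10.3% and 25.9% in the libraries labelled knockout and control at a threshold of 2 counts, 6.04% and 14.5% at 5, 3.71% and 8.15% after thinning, 4.27% and 15.4% by Wnt9b and Lhx6 alone (log2 ratio -1.85), 6.55% and 17.6% without stellate transcripts, and 6.26% and 15.3% without transcripts of other cell types. Counts of genes with no filter beyond 1 count were 2637 higher and 3548 lower between libraries in pericentral barcodes, 2103 and 5892 in other endothelial barcodes, and 1990 and 628 for pericentral over other. At 50 CPM and 100 counts, 368 and 374, 350 lower in other endothelial barcodes, and 189 higher for pericentral over other were left. In other endothelial barcodes TMM gave 664 and median of ratios 639 higher genes, and these scalings moved the median of all genes by 0.145 and 0.135 there. Pericentral over other, 136 genes were higher by Wnt9b and Lhx6, 175 without stellate transcripts and 199 without transcripts of other cell types, and 249 were lower after thinning.

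For single genes and lists, 2109 values stayed near the main ones, 904 moved and 54 reversed. Between libraries, Ccn1 reversed without transcripts of other cell types (-0.51). Tgfb2 did after thinning (0.098), by Wnt9b and Lhx6 (0.20), without stellate transcripts (1.03) and without transcripts of other cell types (1.01). Ackr1 did after thinning (-0.37). For pericentral over other in the library labelled knockout, the reversals by Wnt9b and Lhx6 were Gdf2 (-0.25), Angptl6 (-0.28), Ccn2 (-0.14, also the CCN list median), Top2a (0.41), Ms4a4d (-0.23) and Lhx2 (-0.18). Without stellate transcripts they were Dcn (-0.0021), Gdf2 (-1.09), Hhip (-2.07), Ccn2 (-1.38), Ms4a4d (-2.20), Olfml3 (-1.68) and Cxcl12 (-0.78). Without transcripts of other cell types they were Dcn (-0.17), Gdf2 (-0.94), Hhip (-1.84), Ccn2 (-1.50), Ms4a4d (-1.95), Cxcl12 (-0.72), Mki67 (0.17) and Top2a (0.0081). A threshold of 2 gave Mki67 0.22 and Top2a 0.33, and means over barcodes 0.36 and 0.38. In the library labelled control, reversals by Wnt9b and Lhx6 were Dcn (-0.61), Gdf2 (-0.42), Hhip (-0.53), Angptl6 (-0.80), Ms4a4d (-0.37), Lhx2 (-0.61), Ntn1 (-0.57), Olfml3 (-0.39), Col14a1 (-0.34), Cxcl12 (-0.67) and the matrix list median (-0.0048). Without stellate transcripts they were Dcn (-0.43), Gdf2 (-1.07), Angptl6 (-0.28), Ms4a4d (-0.20), Lhx2 (-0.61) and Cxcl12 (-0.54), and without transcripts of other cell types Dcn (-0.45), Gdf2 (-1.14), Ms4a4d (-0.29), Lhx2 (-1.78) and Cxcl12 (-1.12). The alternatives that leave out barcodes do so by those transcripts, and for the others the cause was not tested. Depth limits genes at few counts: Ccn2 in pericentral barcodes of the library labelled knockout without stellate transcripts rests on 5 counts.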

Other observations

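Further vascular gene groups held members on both sides in pericentral barcodes. For these and the groups below, 7.35% of all measured genes were higher and 10.8% lower, at a median of -0.03. The counts of flow-sensing and vasoactive genes lay near those shares. Flow-sensing and vasoactive genes were higher in 1 and lower in 1 of 12 measured cases, at a median of 0.13, and in 1 and 2 of 12 without stellate transcripts. The lower one with all barcodes was Klf2, a flow-induced transcription factor, at 368 CPM in the library labelled knockout and 687 CPM in the library labelled control, a log2 ratio of -0.90, beside -0.03 in other endothelial barcodes. Edn1, the vasoconstrictor endothelin 1, stood at 336 and 300 CPM in pericentral barcodes, against 50.7 and 105 CPM in other endothelial barcodes, and was at least 1.5-fold higher in pericentral barcodes of both libraries. Coagulation genes were higher in 3 and lower in 2 of 10 cases, at a median of -0.19. F8 (coagulation factor VIII) stood at 1832 and 999.7 CPM. Genes of leukocyte adhesion, chemokines included, were higher in 3 and lower in 2 of 12 cases, at a median of 0.14, and in 2 and 3 of 13 without stellate transcripts. Vcam1 stood at 234 and 250 CPM.

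Endothelial transcription factors were higher in 5 and lower in 4 of 23 measured cases, at a median of 0.17. Hlf had the highest ratio of these, at 2.53. TGF-beta and BMP response genes were higher in 3 and lower in 1 of 11 cases, at a median of 0.19. Without stellate transcripts 2 were higher and 3 lower of 10, at a median of 0.0017. The inhibitory SMAD gene Smad7 stood at 314 and 164 CPM in pericentral barcodes, and Smad6 at 253 and 161 CPM.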
